A study of Homo sapiens with 12 samples.

Results

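Lysozyme and myeloid granule proteins were followed through 10 genes, LYZ, CTSG, ELANE, AZU1, PRTN3, MPO, RNASE2, CFD, SRGN and MMP9, in OCI-AML3, a long-established line of human acute myeloid leukaemia. The genes were chosen by name, as azurophil and other granule proteins, with earlier results of these data known. They came from the 54628 gene symbols of the deposited table of raw read counts, and each was found there once. Poly(A) RNA was sequenced as paired ends after 24 h with the combination of venetoclax and an ERK inhibitor (Comb, labelled ABT199 + ERKi), the ERK inhibitor alone (ERKi, labelled compound 27), venetoclax alone (ABT199) or DMSO, the solvent, with 3 libraries per group. Venetoclax blocks the survival protein BCL2, and ERKi is directed at the kinases ERK1 and ERK2 at the end of the RAS-RAF-MEK-ERK cascade. Each group is the same cell line with no genetic change between groups, and doses were not given in the sources used here. Separate cultures are not mentioned for the replicates, and p-values therefore reflect only how these libraries scatter, which may be technical.

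Neutrophil granules are made in waves during maturation in the bone marrow. Azurophil granules come with the promyelocyte and carry myeloperoxidase and a family of serine proteases, which bind to the proteoglycan serglycin and are trimmed to their active form by cathepsin C. Lysozyme, which cuts bacterial cell walls, is made by neutrophil precursors and by monocytes and macrophages, whereas gelatinase B (MMP9) is packed late into the gelatinase granules of neutrophils. The transcription factors C/EBP, PU.1, RUNX1 and MYB are known to act on the promoters of several of these genes.

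Library totals ran from 19199296 to 21275065 counts, and 15173 genes passed a filter on low counts. All 10 granule genes passed it, but MMP9 did so through its DMSO and venetoclax libraries, since 0 of 3 Comb and 1 of 3 ERKi libraries were above the cutoff of 0.49 CPM (counts of a gene per 1000000 counts of its scaled library). DMSO replicate 1 stood apart: its counts differed from those of the other DMSO libraries by a chi-square of 17.93 and 16.91 per degree of freedom, while other replicate pairs gave 2.34 to 5.52. Of 8 markers of the labelled myeloid leukaemia line, 7 reached 1 CPM in every group, and KIT stayed below it. Markers of T and NK cells, B cells, and red cells and platelets summed to at most 2.71 CPM in any library, and those of basophils and mast cells to at most 3.67 CPM.

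The 10 genes lie on 6 chromosomes (coordinates are RefSeq, GRCh38.p14). AZU1 (chr19:827837-832018), PRTN3 (chr19:840999-848175), ELANE (chr19:852303-856243) and CFD (chr19:859664-863641) follow each other over 35805 bases. CTSG (chr14:24573518-24576250) and RNASE2 (chr14:20955487-20956436) lie apart on chromosome 14. LYZ is at chr12:69348381-69354234, MPO at chr17:58269855-58280935, SRGN at chr10:69087603-69104811 and MMP9 at chr20:46008908-46016561. RefSeq promoter sequences, from 250 bases before the start site to 50 after it, were matched for 5 of the 10 genes. The promoters of AZU1 (chr19:827587-827886, plus strand), PRTN3 (chr19:840749-841048, plus strand) and CTSG (chr14:24576201-24576500, minus strand) are shown 5′ to 3′ because their products are close relatives whose levels behaved differently below. Capitals mark matches, on either strand, to TTNNGNAA (C/EBP), GAGGAAG (PU.1) and CAACNG (MYB).
AZU1: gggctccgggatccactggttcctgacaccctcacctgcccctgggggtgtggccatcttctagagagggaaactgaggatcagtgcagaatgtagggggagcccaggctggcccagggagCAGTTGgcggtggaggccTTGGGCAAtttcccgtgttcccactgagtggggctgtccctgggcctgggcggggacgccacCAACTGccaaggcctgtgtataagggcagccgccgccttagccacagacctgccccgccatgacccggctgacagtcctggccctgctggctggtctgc
PRTN3: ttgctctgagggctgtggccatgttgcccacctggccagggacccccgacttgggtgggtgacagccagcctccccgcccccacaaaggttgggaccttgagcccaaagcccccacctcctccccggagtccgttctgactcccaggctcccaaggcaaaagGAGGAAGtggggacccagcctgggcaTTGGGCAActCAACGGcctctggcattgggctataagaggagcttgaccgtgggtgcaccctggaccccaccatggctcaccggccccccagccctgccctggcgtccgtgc
CTSG: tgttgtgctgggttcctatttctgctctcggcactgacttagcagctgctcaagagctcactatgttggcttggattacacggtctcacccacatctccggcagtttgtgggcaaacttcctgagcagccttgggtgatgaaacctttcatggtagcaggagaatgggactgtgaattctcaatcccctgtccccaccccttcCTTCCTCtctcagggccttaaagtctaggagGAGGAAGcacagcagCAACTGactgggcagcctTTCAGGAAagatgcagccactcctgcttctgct

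AZU1 and PRTN3 held the same C/EBP letters, TTGGGCAA, which began 111 bases before the AZU1 start site and 62 bases before the PRTN3 start site. Each also held a MYB match on the plus strand, 49 bases before the start in AZU1 and 52 bases before it in PRTN3, and AZU1 held another on the minus strand. PRTN3 held 1 PU.1 match and CTSG 2. CTSG further held a MYB match at its start site and a C/EBP match after it. RNASE2 held a C/EBP and a MYB match, and CFD no match to these motifs. TGTGGT (RUNX) and TGANTCA (AP-1), also searched, were in none of the 5. Such matches are common: of 27305 promoters of the same length, 37.2% held TTNNGNAA, 33.2% CAACNG, 13.4% GAGGAAG, 13.1% TGTGGT and 7.76% TGANTCA. The listed matches did not overlap each other.

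The 10 genes together took 1.07% ± 0.006 of all counts in Comb libraries, 0.873% ± 0.0242 in ERKi libraries, 0.304% ± 0.0034 in venetoclax libraries and 0.313% ± 0.0168 in DMSO libraries (SD, n = 3 each). Most of that came from LYZ, CTSG and SRGN. Ranked by CPM per kilobase of exon among 13377 tested genes with a GENCODE length, LYZ stood at rank 5 in Comb and at rank 5 in ERKi libraries, at 317 with venetoclax and at 238 with DMSO. CTSG stood at rank 2 in Comb libraries and 3 in ERKi libraries, and at rank 8 with venetoclax and with DMSO. SRGN held rank 4 in Comb libraries, 2 in ERKi libraries, 6 with venetoclax and 7 with DMSO. MPO, the best known azurophil marker, was at the other end, with rank 10515 in Comb, 12104 in ERKi, 11161 in venetoclax and 11216 in DMSO libraries. Granule genes of this line thus ranged from among its most abundant transcripts to among its least, and levels per kilobase in Comb libraries fell in the order CTSG, SRGN, LYZ, RNASE2, ELANE, AZU1, CFD, PRTN3, MPO and MMP9.

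**Figure D1:**
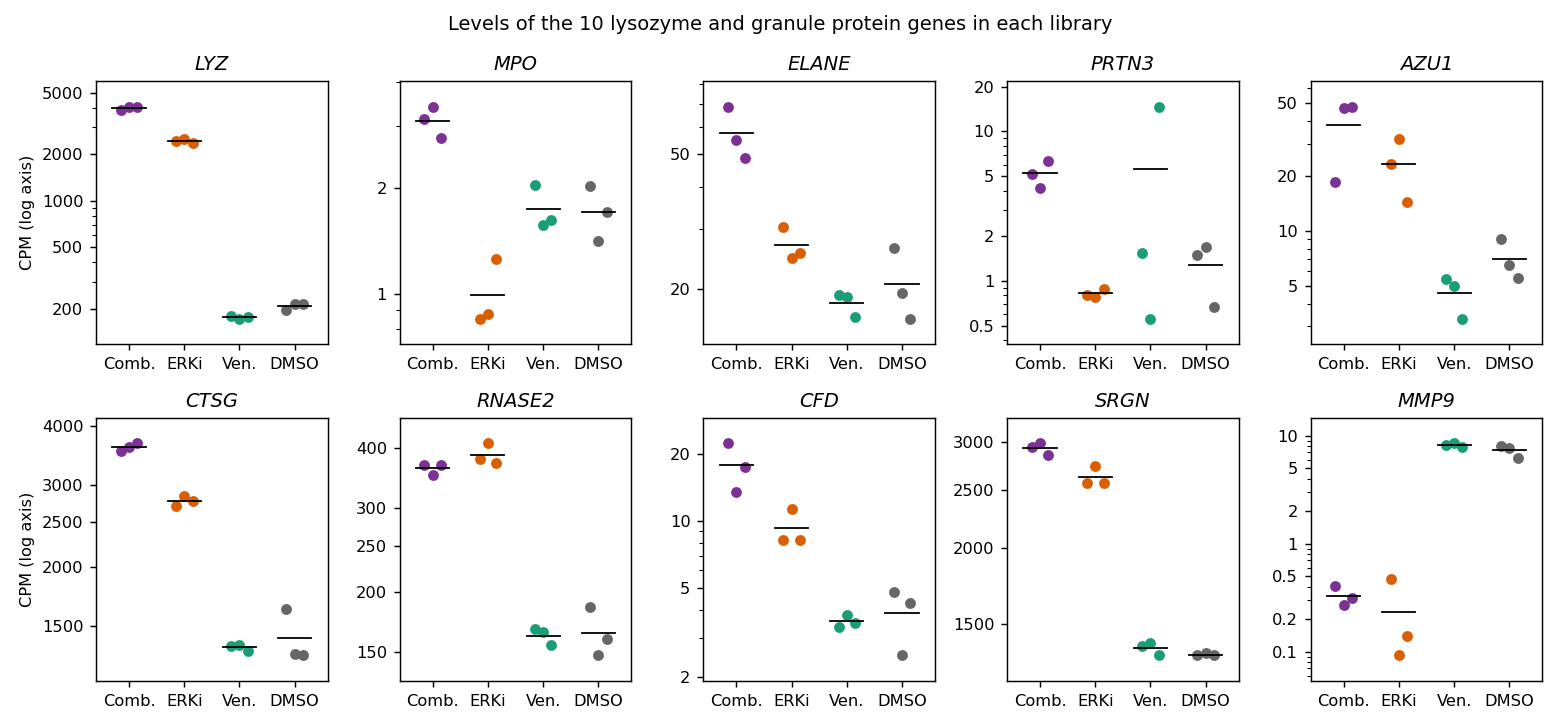
Level of each of the 10 genes in CPM (log axis with its own range in each panel) in the Comb, ERKi, venetoclax (Ven.) and DMSO libraries. Points are libraries and bars the mean of 3. LYZ, CTSG, RNASE2, CFD, AZU1 and SRGN sit higher in every Comb and ERKi library than in any venetoclax or DMSO library, and MMP9 lower.

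After the combination, 9 of the 10 granule genes were higher than with DMSO and 1, MMP9, was lower. In that comparison 30.4% of all genes tested were called higher and 33.4% lower, at an adjusted p under 0.05 from edgeR's quasi-likelihood test. The median log2 fold change was 1.42 over the 10 genes, against -0.01 over all genes tested. In bulk samples, fewer cells of a type and less RNA per cell cannot be told apart. ERKi alone gave 7 genes higher and 2, MPO and MMP9, lower, where 34.5% of all genes were called higher and 35.2% lower, and the medians were 0.98 and 0.01. With venetoclax alone 0 genes were called higher and 1, LYZ, lower, where 0.0198% of all genes were called higher and 0.382% lower, and the medians were -0.04 and 0.00. At an unadjusted p under 0.05 edgeR gave 1 gene higher (PRTN3) and 1 lower, and DESeq2 and limma-voom, like edgeR, called LYZ alone. These 3 comparisons share the DMSO libraries. MMP9 passed the filter on low counts through the groups without ERKi, where it was high. Its calls of lower, here and below, therefore give no support.

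Against venetoclax alone, the combination had 8 of the 10 genes higher and MMP9 lower, with 32.1% of all genes called higher and 34.2% lower. The medians were 1.29 over the 10 genes and 0.00 over all. Against ERKi alone, the combination had 7 genes higher and 0 lower, with 26.5% of all genes called higher and 24.3% lower, and medians of 0.71 and 0.00. Of the 10 genes, 0 were lower there also at an unadjusted p under 0.05, with DESeq2 and with limma-voom. The share of higher among all calls of that last comparison was 52.1%, and 34.8% when libraries were scaled by their totals alone.

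**Figure D2:**
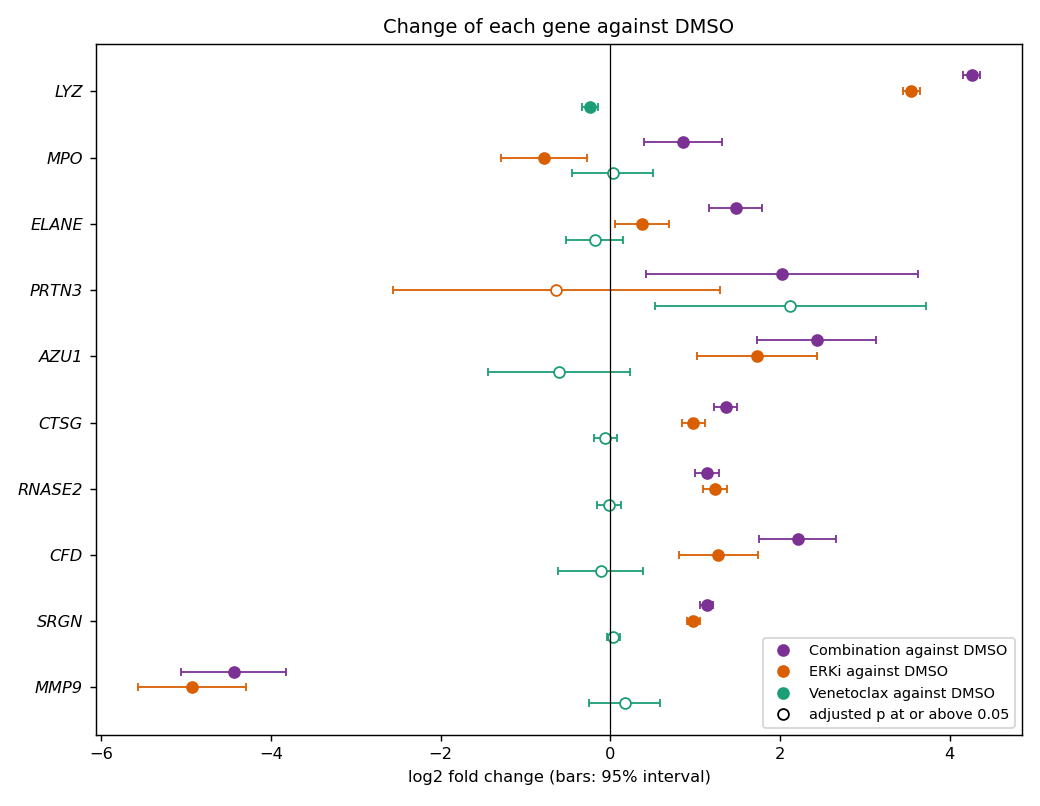
Log2 fold change against DMSO for each of the 10 genes (x axis) with the combination, ERKi and venetoclax. Bars are 95% intervals from edgeR's fit, and open points have an adjusted p at or above 0.05. LYZ lies farthest to the right with both ERKi treatments, at 4.26 and 3.54, and MMP9 farthest to the left, at -4.44 and -4.93.

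LYZ encodes lysozyme. It had 3855, 4040.5 and 4076 CPM in the Comb libraries and 2427, 2513 and 2361 CPM in the ERKi libraries. With venetoclax it had 179, 173 and 177 CPM, and with DMSO 196, 214 and 216 CPM. None of the 4 groups overlapped another, and DMSO replicate 1 was the lowest DMSO library. LYZ was 19.1-fold higher in Comb than in DMSO libraries (log2 fold change 4.26, SE 0.048, adjusted p = 6.77e-19) and 11.7-fold higher in ERKi than in DMSO libraries (3.54, SE 0.0465, adjusted p = 7.82e-18).

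The combination exceeded ERKi alone by 1.64-fold (log2 0.71, SE 0.0418, adjusted p = 1.86e-09), while venetoclax alone was 1.18-fold below DMSO (log2 -0.24, SE 0.0436, adjusted p = 0.0145). That small decrease was no longer called without DMSO replicate 2 (adjusted p = 0.0666) or 3 (0.0882), without venetoclax replicate 1 (0.073), 2 (0.154) or 3 (0.0777), and in a fit of these 6 libraries alone (0.329). GENCODE v29 places an antisense gene, AC020656.1, over 733 bases of LYZ, and the strand setting of the counting was not given in the sources used here.

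CTSG encodes cathepsin G, a serine protease of azurophil granules with chymotrypsin-like activity. It had 3546, 3609 and 3679 CPM in Comb libraries and 2707, 2835 and 2767 CPM in ERKi libraries. Venetoclax libraries had 1358, 1366 and 1324 CPM and DMSO libraries 1628, 1304 and 1297 CPM. The order Comb over ERKi over both other groups held without overlap, and DMSO replicate 1 lay above the rest of its group. The gene rose 2.56-fold in Comb libraries (log2 1.36, SE 0.0646, adjusted p = 1.91e-11) and 1.96-fold in ERKi libraries (log2 0.97, SE 0.0641, adjusted p = 6.08e-10) against DMSO. Comb exceeded ERKi by a log2 fold change of 0.38 (adjusted p = 0.000106). For venetoclax against DMSO the value was -0.06 (95% interval -0.20 to 0.07, adjusted p = 0.789), and 0.05 without DMSO replicate 1.

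ELANE encodes neutrophil elastase, the azurophil protease whose mutations cause inherited neutropenia. Its libraries had 68.8, 55.0 and 48.6 CPM with the combination and 30.5, 24.6 and 25.4 CPM with ERKi. They had 19.2, 18.9 and 16.5 CPM with venetoclax and 26.4, 19.4 and 16.3 CPM with DMSO. Every Comb library was above every other library, whereas ERKi and DMSO libraries overlapped through DMSO replicate 1. Comb was 2.78-fold above DMSO (log2 1.47, SE 0.147, adjusted p = 1.76e-07) and 2.14-fold above ERKi (log2 1.10, SE 0.143, adjusted p = 9.98e-06). ERKi alone was 0.37 above DMSO on the log2 scale (adjusted p = 0.0362). This call was lost without DMSO replicate 2 (adjusted p = 0.104) or 3 (0.198), without ERKi replicate 1 (0.174) and with DESeq2 (0.0687).

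AZU1 encodes azurocidin, a relative of elastase that has lost its protease activity and kills bacteria by binding to them. It had 18.4, 47.2 and 47.8 CPM in Comb libraries and 23.1, 31.7 and 14.4 CPM in ERKi libraries. Venetoclax libraries had 5.44, 5.02 and 3.30 CPM and DMSO libraries 8.99, 6.50 and 5.50 CPM. Comb and ERKi libraries overlapped each other but stood above both other groups, and the venetoclax libraries lay just below the DMSO libraries without overlap. AZU1 rose 5.40-fold with the combination (log2 2.43, SE 0.331, adjusted p = 6.73e-06) and 3.30-fold with ERKi (log2 1.72, SE 0.335, adjusted p = 0.000218) against DMSO.

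The difference between Comb and ERKi in AZU1, 0.71 on the log2 scale, was not called (95% interval 0.08 to 1.33, adjusted p = 0.0552). It turned into a call without Comb replicate 1 (1.03, adjusted p = 0.0022) or ERKi replicate 2 (1.01, adjusted p = 0.0184), in a fit of these 6 libraries (0.69, adjusted p = 0.0414) and without a filter on low counts (0.74, adjusted p = 4.69e-14). That last p does not reflect the scatter of the AZU1 libraries, which overlapped between Comb and ERKi, and gives no support. Venetoclax against DMSO gave -0.61 (95% interval -1.45 to 0.23, adjusted p = 0.668).

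PRTN3 encodes proteinase 3, the main target of the autoantibodies of granulomatosis with polyangiitis. It had 5.21, 4.17 and 6.34 CPM in Comb libraries and 0.805, 0.785 and 0.885 CPM in ERKi libraries. The ERKi values rest on 17 to 19 counts. Venetoclax libraries had 1.55, 0.558 and 14.7 CPM and DMSO libraries 1.50, 1.70 and 0.664 CPM. Venetoclax replicate 3, with 298 counts, was the highest of all 12 libraries, while the other venetoclax libraries had 31 and 11 counts. The Comb libraries lay above every ERKi and DMSO library.

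Comb was 4.06-fold above DMSO in PRTN3 (log2 2.02, SE 0.758, adjusted p = 0.0281) and 6.32-fold above ERKi (log2 2.66, SE 0.804, adjusted p = 0.0112). The call against DMSO was lost without DMSO replicate 3 (adjusted p = 0.0906), without Comb replicate 1 (0.0545) or 3 (0.0734) and with DESeq2 (0.0507). ERKi against DMSO gave -0.64 (95% interval -2.56 to 1.29, adjusted p = 0.545) and Comb against venetoclax -0.10 (-1.50 to 1.30, adjusted p = 0.903). Without venetoclax replicate 3, Comb stood 2.30 above venetoclax (adjusted p = 9.04e-05), and venetoclax against DMSO was -0.28 in place of 2.12.

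MPO encodes myeloperoxidase, the heme enzyme that makes hypochlorous acid. At 18 to 63 counts per library it was the granule gene with the lowest level per kilobase in DMSO libraries. It had 3.14, 3.41 and 2.78 CPM with the combination, 0.853, 0.878 and 1.26 CPM with ERKi, 2.05, 1.57 and 1.63 CPM with venetoclax and 2.03, 1.41 and 1.71 CPM with DMSO. The combination lay above and ERKi below all libraries of the other groups. MPO rose with the combination against DMSO (log2 0.86, SE 0.215, adjusted p = 0.00233) and fell with ERKi (log2 -0.78, SE 0.238, adjusted p = 0.00799). Comb was 3.11-fold above ERKi (log2 1.64, SE 0.228, adjusted p = 2.00e-05).

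RNASE2 encodes the eosinophil-derived neurotoxin, a secreted ribonuclease that eosinophils and neutrophil or monocyte precursors also make. It had 368, 351 and 368 CPM in Comb libraries and 380, 409 and 371 CPM in ERKi libraries. Venetoclax libraries had 167, 165 and 155 CPM and DMSO libraries 187, 148 and 160 CPM. Both ERKi treatments stood above both other groups without overlap, and each Comb library was below each ERKi library. It rose 2.20-fold with the combination (log2 1.14, SE 0.0677, adjusted p = 3.05e-10) and 2.35-fold with ERKi (log2 1.23, SE 0.0676, adjusted p = 5.98e-11) against DMSO. Comb against ERKi gave -0.09 (95% interval -0.23 to 0.05, adjusted p = 0.251), and this became a call of lower with totals alone as scaling (-0.22, adjusted p = 0.00843) and in a fit of these 6 libraries (-0.11, adjusted p = 0.0311). The related RNASE3 and the pseudogene RNASE2CP lie within 100 kb, and how reads that match several copies were counted is not given in the sources used here. RNASE2CP itself had log2 fold changes of 1.15 with the combination and 1.44 with ERKi against DMSO (adjusted p = 7.73e-09 and 2.29e-10). Among eosinophil markers, PRG3, CLC and SIGLEC8 were at 0 in all 12 libraries. The summed level of 7 eosinophil markers was 51.3 to 55.4 CPM in Comb, 47.2 to 50.8 in ERKi, 17.2 to 18.7 in venetoclax and 16.7 to 21.6 in DMSO libraries. RNASE3 held nearly all of that sum, averaging 49.8 CPM in Comb, 46.8 in ERKi, 17.0 in venetoclax and 17.6 in DMSO libraries. The part of this sum in the RNASE2 result was not tested.

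CFD encodes complement factor D, also called adipsin, the serine protease that starts the alternative complement pathway and that myeloid cells store in granules. Comb libraries had 22.3, 13.5 and 17.4 CPM and ERKi libraries 8.24, 11.4 and 8.24 CPM. Venetoclax libraries had 3.34, 3.80 and 3.50 CPM and DMSO libraries 4.78, 2.50 and 4.27 CPM. Each Comb library was above each ERKi library, which in turn was above all venetoclax and DMSO libraries. CFD rose 4.61-fold with the combination (log2 2.20, SE 0.216, adjusted p = 1.41e-07) and 2.41-fold with ERKi (log2 1.27, SE 0.219, adjusted p = 6.80e-05). The gap between Comb and ERKi was 0.93 (SE 0.199, adjusted p = 0.000952).

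SRGN encodes serglycin, the proteoglycan core that holds the proteases in granules. It had 2946, 2987 and 2854 CPM in Comb libraries, 2570.3, 2740.0 and 2568 CPM in ERKi libraries, 1377, 1394 and 1329 CPM in venetoclax libraries and 1330, 1340.4 and 1329 CPM in DMSO libraries. Comb lay above ERKi and ERKi above both other groups without overlap, while venetoclax and DMSO libraries overlapped. SRGN varied least of the 10 genes by edgeR's estimate of spread over all groups. Within the Comb, ERKi and venetoclax groups, however, CTSG varied less than SRGN relative to its mean. SRGN rose 2.20-fold with the combination (log2 1.14, SE 0.0369, adjusted p = 2.36e-13) and 1.97-fold with ERKi (log2 0.98, SE 0.0368, adjusted p = 5.01e-13). Comb stood 0.16 above ERKi (adjusted p = 0.00179), and 0.03 above it with totals alone as scaling (adjusted p = 0.414).

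MMP9 encodes gelatinase B, and moved against the rest with the combination, while with ERKi alone MPO was also called lower. Comb libraries had 8, 5 and 6 counts and ERKi libraries 10, 2 and 3. Venetoclax libraries had 166, 168 and 159 counts and DMSO libraries 167, 162 and 132. The groups with ERKi did not come near the groups without it. MMP9 fell by 4.44 on the log2 scale with the combination (SE 0.291, adjusted p = 1.01e-09) and had a log2 fold change of -4.93 with ERKi (SE 0.302, adjusted p = 2.35e-10). Because MMP9 passed the filter through the libraries without ERKi, these p-values give no support, and its counts are a description. The difference between Comb and ERKi was 0.49 (95% interval -0.50 to 1.48, adjusted p = 0.403) and that between venetoclax and DMSO 0.17 (-0.25 to 0.58, adjusted p = 0.820). An antisense gene, SLC12A5-AS1, covers 3062 bases of MMP9 in GENCODE v29 and had at most 8 counts in any library.

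The effect of venetoclax differed with and without ERKi in 6 of the 10 genes by an interaction term, (Comb minus ERKi) minus (venetoclax minus DMSO) on the log2 scale. All 6 terms were above 0, where 21.3% of all genes were called higher and 18% lower, and the medians were 0.75 over the 10 genes and 0.01 over all. Of all calls of this term 54.2% were higher, and 38.3% when libraries were scaled by their totals alone. The terms were 1.61 for MPO (SE 0.321, adjusted p = 0.000956), 1.32 for AZU1 (SE 0.492, adjusted p = 0.0438) and 1.29 for ELANE (SE 0.212, adjusted p = 0.000203). They were 1.05 for CFD (SE 0.31, adjusted p = 0.0133), 0.96 for LYZ (SE 0.0604, adjusted p = 2.54e-08) and 0.45 for CTSG (SE 0.0899, adjusted p = 0.00102). In LYZ the sign of the venetoclax effect changed: 0.71 in the presence of ERKi, against -0.24 in its absence. In MPO, ERKi alone and the combination were both called against DMSO, in opposite directions. PRTN3 also had opposite signs, but its value with ERKi was not called.

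SRGN (0.12, 95% interval 0.01 to 0.23, adjusted p = 0.0724), RNASE2 (-0.08, -0.28 to 0.13, adjusted p = 0.567), MMP9 (0.33, -0.73 to 1.39, adjusted p = 0.648) and PRTN3 (0.54, -1.84 to 2.91, adjusted p = 0.744) were not called. Without venetoclax replicate 3 the PRTN3 term was 2.94 (adjusted p = 0.000798). Without DMSO replicate 1, SRGN (0.13, adjusted p = 0.0243) and RNASE2 (-0.17, adjusted p = 0.0298) were called, and AZU1 was not (1.10, adjusted p = 0.0986). SRGN was also called without ERKi replicate 2 (0.16, adjusted p = 0.027). The AZU1 call stood only without DMSO replicate 3, ERKi replicate 2 or Comb replicate 1 among the 12 libraries left out in turn. Over all 12 its term ran between 1.07 and 1.64.

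**Figure D3:**
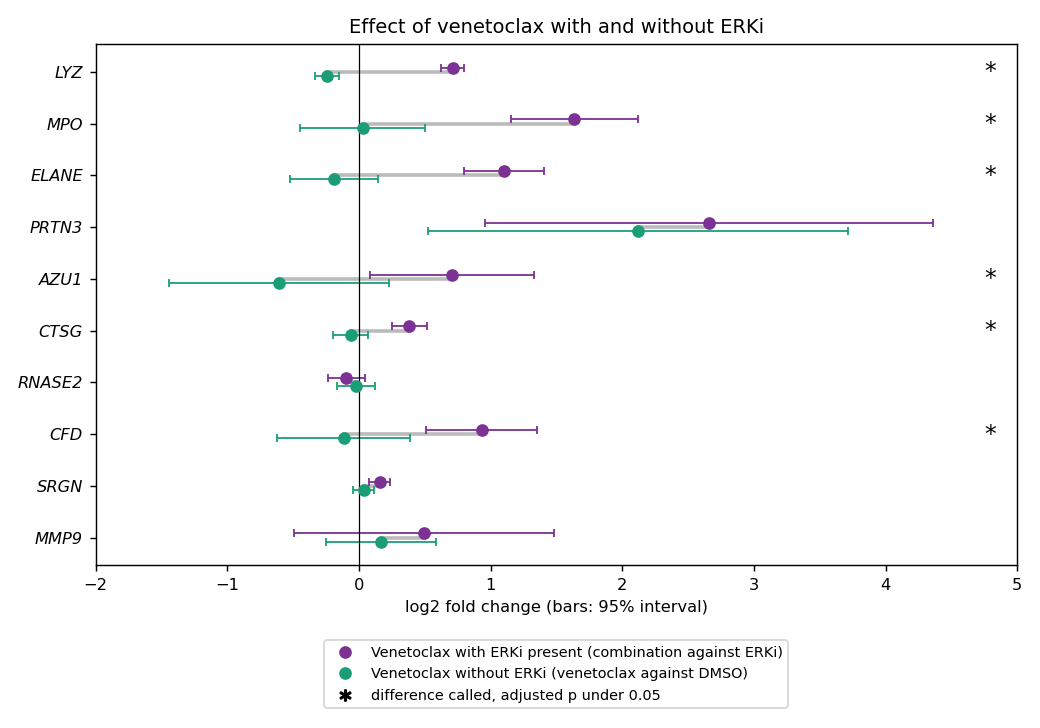
Log2 fold change of venetoclax in the presence of ERKi (Comb against ERKi) and in its absence (venetoclax against DMSO) for each of the 10 genes, with 95% intervals from edgeR's fit. An asterisk marks an interaction with an adjusted p under 0.05, which 6 genes have. In these 6 the point with ERKi lies to the right of the point without it, by 0.45 for CTSG up to 1.61 for MPO.

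AZU1, PRTN3, ELANE and CFD, the neighbours on chromosome 19, were all higher in Comb than in DMSO libraries, with log2 fold changes of 2.43, 2.02, 1.47 and 2.20. With ERKi alone they were less alike, at 1.72, -0.64, 0.37 and 1.27, of which PRTN3 was not called. Of 6 other tested genes within 100 kb of them, 2 were higher and 1 lower with the combination, and 2 were higher and 3 lower with ERKi. These counts were 3 and 1 with the combination and 2 and 2 with ERKi when DMSO replicate 1 was left out. Of all genes tested 30.4% were called higher and 33.4% lower with the combination, and 34.5% higher and 35.2% lower with ERKi. PLPPR3, the nearest gene on the AZU1 side, rose on the log2 scale by 1.09 with the combination and 0.33 with ERKi (adjusted p = 1.94e-10 and 0.000186). PTBP1, a splicing regulator next to it, fell by 0.14 and 0.71 (adjusted p = 0.0233 and 1.57e-09). MED16, a Mediator subunit on the CFD side, fell by 0.48 with ERKi (adjusted p = 0.000216) and was at -0.16 with the combination (adjusted p = 0.150). The interaction term was above 0 and called in 5 of the 6, between 0.21 and 0.83 over all 6. Of all genes tested 21.3% were called higher and 18% lower for that term. These neighbours share libraries with the granule genes and are not independent of them.

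**Figure D4:**
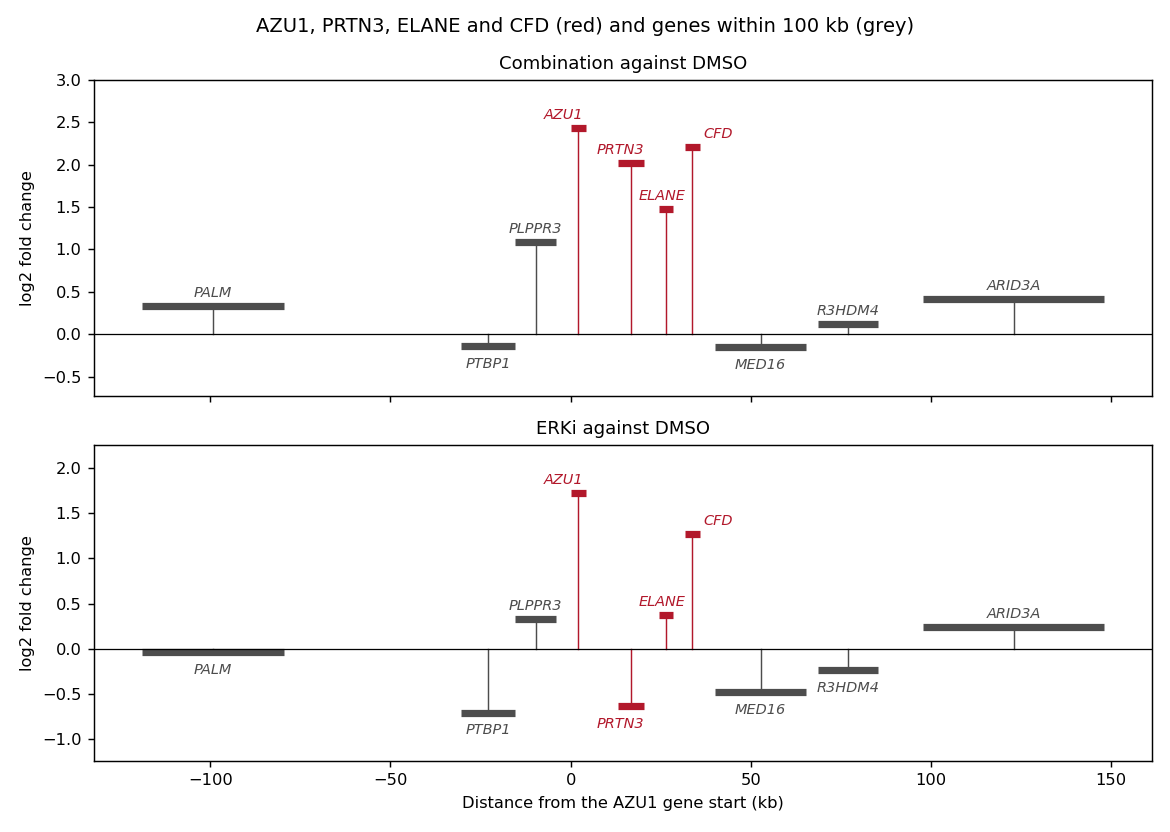
Log2 fold change (y axis) of AZU1, PRTN3, ELANE and CFD (red) and of the 6 other tested genes within 100 kb (grey) along chromosome 19, by distance from the start of AZU1. Horizontal bars span each gene. With the combination (upper panel) the 4 red genes stand above all grey genes, and with ERKi (lower panel) PRTN3 lies below 0 and was not called.

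The spread among replicates differed widely between the genes. The biological coefficient of variation estimated by edgeR was 59.1% for PRTN3, higher than for 99.5% of all genes tested, and 26.3% for AZU1. CFD had 17.5%, MPO 13.6%, MMP9 13.6% and ELANE 12.4%. CTSG had 5.96%, RNASE2 5.95%, LYZ 4.18% and SRGN 3.77%, against a median of 7.60% over all genes. DMSO replicate 1 had the highest CPM of its group in CTSG, RNASE2, ELANE, AZU1, CFD, MPO and MMP9. Without it, the counts of granule genes called were the same against DMSO for the combination, for ERKi and for venetoclax, and their median log2 fold change with venetoclax was 0.06 in place of -0.04.

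Lists of related genes, chosen by function, describe other granule parts, and a gene may stand in several lists. A listed gene near the filter's cutoff of 0.49 CPM can pass through the groups where it is high, and its call then gives no support. Such genes include LYG2, C3AR1 and ANG, which averaged 0.318, 0.361 and 0.463 CPM over all 12 libraries. They also include QPCT, PRSS57 and HP, which averaged 0.552, 0.642 and 1.35 CPM and rose by log2 1.37, 2.90 and 3.90 with ERKi. These values put their average with DMSO below the cutoff. HP is the 1 gene of the specific granule list called higher with ERKi. Counts of the lists are read against the shares of all genes, 30.4% higher and 33.4% lower with the combination and 34.5% higher and 35.2% lower with ERKi. Of 17 tested genes for other azurophil and lysosomal contents, 13 were higher and 1 lower with the combination than with DMSO (median log2 0.51), and 12 were higher and 3 lower with ERKi (median 0.45). PSAP, the precursor of the saposins, averaged 552 ± 11.9 CPM in Comb, 584 ± 11.2 in ERKi and 241 ± 11.1 in DMSO libraries (SD, n = 3 each). ARSA, arylsulfatase A, and RNASE3, the eosinophil cationic protein, rose on the log2 scale by 1.27 and 1.50 with the combination and by 1.18 and 1.41 with ERKi. The specific granule list had only 5 of 15 genes tested, with 3 higher and 1 lower in Comb and 1 higher and 2 lower in ERKi libraries (median log2 0.12 and -0.15). It had 2 higher and 2 lower in each without DMSO replicate 1 (median log2 0.06 and -0.21). In the fit of all libraries, CYBB, the NADPH oxidase subunit, was 0.12 above DMSO with the combination (adjusted p = 0.0491) and 0.15 below it with ERKi (log2 -0.15, adjusted p = 0.0184). The gelatinase granule list had 5 of 8 genes tested, of which 3 were higher with the combination and 3 with ERKi (median log2 1.09 and 1.30), while MMP9 itself was lower. In each, 4 of 6 tested were higher without DMSO replicate 1 (median log2 0.83 and 0.92).

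**Figure D5:**
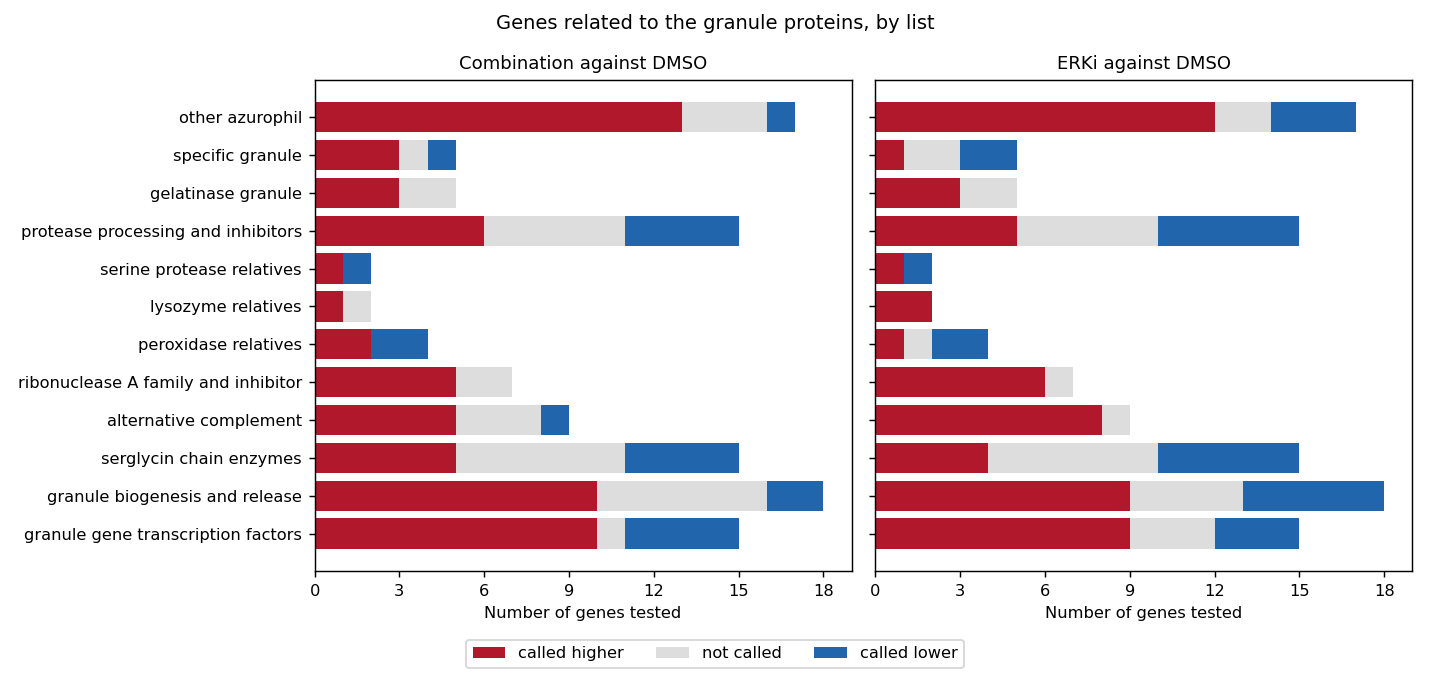
Number of tested genes of 12 lists that were called higher (red), not called (grey) or called lower (blue) with the combination (left) and with ERKi (right) against DMSO. The list of other azurophil contents has 13 of 17 genes higher with the combination and 12 of 17 with ERKi. Across all genes tested 30.4% were called higher and 33.4% lower with the combination, and 34.5% higher and 35.2% lower with ERKi.

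Genes that process or restrain the granule proteases were split. Of 15 tested, 6 were higher and 4 lower with the combination and 5 and 5 with ERKi (median log2 -0.03 and 0.07), and without DMSO replicate 1 the medians were 0.09 and 0.09. TIMP3, an inhibitor of metalloproteinases, averaged 127 ± 5.47 CPM in Comb, 335 ± 5.40 in ERKi, 1087 ± 18 in venetoclax and 1189 ± 11.7 in DMSO libraries, and so fell alongside MMP9 (log2 -3.22 and -1.83 against DMSO, adjusted p = 3.34e-18 and 1.97e-15). CST3 (cystatin C, a cathepsin inhibitor), SERPINB9 (the granzyme B inhibitor) and SERPINB1 (an inhibitor of elastase, cathepsin G and proteinase 3) rose on the log2 scale by 0.66, 0.52 and 0.28 with the combination and by 0.82, 0.73 and 0.41 with ERKi. Of the serine protease relatives 2 of 10 were tested, with 1 higher and 1 lower in each of the comparisons with DMSO (median log2 -0.47 and -0.44). Without DMSO replicate 1, 3 of them passed the filter and the medians turned to 0.31 and 0.49, with the same counts of calls. Of the lysozyme relatives 2 of 9 were tested, with 1 higher in Comb and 2 in ERKi libraries (median log2 0.77 and 1.59, and 1.20 and 2.02 without DMSO replicate 1). The calls of higher of LYG2 here and of PRSS57 among the serine protease relatives fall under the limit on low counts given above. GZMA, the serine protease relative called lower, averaged 3.15 CPM over all 12 libraries. Its log2 fold changes were -3.27 with the combination and -3.78 with ERKi. It may have passed the filter through the groups without ERKi, where it was high, and its calls of lower then give no support. Of the peroxidases 4 of 6 were tested, with 2 higher and 2 lower in Comb and 1 higher and 2 lower in ERKi libraries (median log2 -0.28 and -0.30). Without DMSO replicate 1, 5 were tested, with 1 higher and 2 lower in each (median log2 -0.75 and -0.82). In the fit of all libraries the peroxidase higher with ERKi was EPX, also among those higher with the combination. Its mean was above the filter's cutoff of 0.49 CPM in the Comb and ERKi groups alone, so its calls of higher give no support. LPO, among the peroxidases called lower, averaged 1.16 CPM over all 12 libraries. It may have passed through the groups where it was high, and its calls of lower then give no support.

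Of 7 tested genes of the ribonuclease family and its inhibitor, 5 were higher with the combination and 6 with ERKi, and the medians were 1.08 and 0.83 on the log2 scale. RNASE4 averaged 5.06 ± 0.567 CPM in Comb, 11.6 ± 0.786 in ERKi and 2.16 ± 0.458 in DMSO libraries, so that Comb was below ERKi (log2 -1.20, adjusted p = 3.70e-05). RNASET2 and RNASE6 rose on the log2 scale by 0.80 and 0.42 with the combination and by 0.70 and 0.64 with ERKi against DMSO. For the alternative complement pathway, in which factor D acts, 5 of 9 tested genes were higher and 1 lower with the combination, and 8 were higher with ERKi (median log2 0.50 and 0.94). Without DMSO replicate 1, 5 of 10 were higher and 2 lower with the combination and 8 higher with ERKi (median log2 0.31 and 0.63). Between Comb and ERKi 6 were lower in Comb (median log2 -0.59), where 26.5% of all genes tested were called higher and 24.3% lower. The 6 include C3AR1, which falls under the limit on low counts given above. CFD itself was higher in Comb than in ERKi libraries. CFP (properdin, which stabilises the pathway's convertase) averaged 49.4 ± 1 CPM in Comb, 83.0 ± 0.473 in ERKi and 22.8 ± 3.69 in DMSO libraries. The complement regulators CD59, CD46 and CD55 were lower in Comb than in ERKi libraries by log2 -0.43, -0.59 and -0.41 (adjusted p = 0.00198, 7.02e-07 and 7.00e-05).

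Among 15 tested enzymes that build the chondroitin sulfate chains of serglycin, 5 were higher and 4 lower with the combination and 4 and 5 with ERKi (median log2 0.09 and -0.07). On the log2 scale XYLT1, which starts the chains, rose by 1.19 and 1.17, CSGALNACT2, which adds their first N-acetylgalactosamine, by 0.44 and 0.37, while CHST11, a sulfotransferase, fell by 1.22 and 1.32. B3GALT6, a linker enzyme, was 0.37 lower with ERKi (log2 -0.37, adjusted p = 2.40e-05) and at -0.04 with the combination (adjusted p = 0.516). Of 18 tested genes of granule biogenesis and release, 10 were higher and 2 lower with the combination and 9 and 5 with ERKi (median log2 0.29 and 0.16). RAB27B, lower in both, averaged 3.29 CPM over all 12 libraries, at log2 -3.65 with the combination and -0.88 with ERKi. It may have passed the filter through the groups where it was high, and its call with the combination then gives no support. HPS1, of the complexes that form lysosome-related organelles, VAMP2 and STX4, of the fusion machinery, and LYST, mutated in Chediak-Higashi syndrome, rose on the log2 scale by 1.27, 0.89, 0.82 and 0.34 with the combination. With ERKi they rose by 1.39, 0.82, 0.85 and 0.73.

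Of 15 tested transcription factors known for granule genes, 10 were higher and 4 lower with the combination and 9 and 3 with ERKi (median log2 0.56 and 0.59). CEBPA, which drives granulocyte and monocyte fate, averaged 810 ± 16.3 CPM in Comb, 729 ± 13.7 in ERKi, 389 ± 14.3 in venetoclax and 403 ± 22 in DMSO libraries (log2 1.01 and 0.85 against DMSO, adjusted p = 7.33e-12 and 2.78e-11). On the log2 scale KLF4, a monocyte factor, rose by 3.04 and 2.76 and FOS, of AP-1, by 2.75 and 2.36, whereas EGR1, an immediate target of ERK signalling, fell, with -2.93 and -4.32. FOS was also the 1 listed factor higher with venetoclax than with DMSO (log2 0.69, adjusted p = 7.14e-06). Of all genes tested 0.0198% were called higher and 0.382% lower in that comparison.

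Levels of monocyte markers also differed between the groups. The summed level of 9 monocyte markers, of which 6 reached 1 CPM in every group, was 1117 to 1274 CPM in Comb, 1399 to 1472 in ERKi, 129 to 133 in venetoclax and 121 to 148 in DMSO libraries. The sum was lower in Comb than in ERKi libraries, whereas the share of counts taken by the 10 granule genes was higher in Comb. VCAN held most of it, averaging 1060 CPM in Comb, 1236 in ERKi, 111 in venetoclax and 114 in DMSO libraries. CSF1R, S100A8 and S100A9 were also above their DMSO level in Comb and ERKi libraries on average. CD14 averaged 0.313 CPM in Comb, 0.311 in ERKi and 0.717 in DMSO libraries, and CD163 averaged 1.41 CPM in Comb, 2.80 in ERKi and 2.44 in DMSO libraries. FCN1 and FCGR3A were low in every group, at most 0.418 CPM on average. Of 8 markers of mature neutrophils 2, CSF3R and CXCR2, reached 1 CPM, and the list's sum was 262 to 278 CPM in Comb, 224 to 234 in ERKi, 79.9 to 81.6 in venetoclax and 86.7 to 111 in DMSO libraries. The sum of 6 fibroblast markers ran from 2.10 to 2.48 CPM in Comb, 10.4 to 25.2 in ERKi, 13.2 to 24.4 in venetoclax and 6.23 to 35.0 in DMSO libraries. Their part in the granule gene results was not tested.

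Patterns most like each granule gene with a mean of at least 5 CPM were sought among 10288 genes by Pearson's r of log2 CPM over the 12 libraries, which fall into 4 groups and share depth and scaling, so that r is a description. LYZ was most like PTGER4, a prostaglandin E2 receptor (r = 0.999), RCSD1 and TIFAB. CTSG was most like KIAA0930, GRN, the granulin precursor, and MYO1F (r = 0.997 to 0.998), and SRGN most like CAT, catalase, ERN1 and KLF4 (r = 0.998). RNASE2 had RNF130, LRMDA and TTC7A (r = 0.997 to 0.998), which like it were higher in ERKi than in Comb libraries on average. ELANE had HOMER3, OXLD1 and TMEM138 (r = 0.974 to 0.983), CFD had EMILIN2, CLSTN1 and GAK (0.975 to 0.981), and AZU1 had EIF3F, SLC15A3 and GDE1 (0.969 each). PTGER4 averaged 95.5 CPM in Comb, 71.3 in ERKi, 17.9 in venetoclax and 20.1 in DMSO libraries, the same order of groups as LYZ.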

How the data were processed

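Poly(A) RNA of 12 OCI-AML3 libraries was measured by paired-end sequencing. The deposited table holds the authors' raw read counts per gene symbol, as whole numbers. The submitters' processing notes name HISAT2, HTSeq, DESeq2 and hg38, while versions, annotation release and strand setting were not given in the sources used here. Groups and replicate numbers came from the labels. The genes and lists were chosen with earlier results of these data known.

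The deposited counts entered edgeR 4.0.16 (R 4.3.3). Of 54628 genes, 15173 passed filterByExpr (minimum count 10, minimum total count 15). TMM scaled the libraries, which takes most genes as unchanged. A single model held all 12 libraries with a coefficient for each group (8 residual degrees of freedom). Quasi-likelihood F tests were adjusted by Benjamini and Hochberg's method over all genes tested, and genes with an adjusted p under 0.05 are described as called. The prior count for log2 fold changes was 0.125. Standard errors are the size of the fold change over the square root of F, and CPM are counts over the scaled library size. Intervals cover the spread between libraries. All 10 genes are named, as are some listed genes whose calls the filter limits. From each list, up to 4 called genes with a mean of at least 5 CPM are named, smallest adjusted p in ERKi against DMSO first; genes within 100 kb of a granule gene and the 3 genes most like it could also be named. An item that this rule names is not reported here. RefSeq (GRCh38.p14) matched 51616 symbols and gave positions, and GENCODE v29 gave exon lengths.

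Other settings tried were DESeq2 1.42.0, limma-voom (limma 3.58.1), RLE scaling, no filter, a minimum of CPM 1 in 3 libraries, a block for replicate number, fits of the compared libraries alone, and leaving out each library. Scaling by totals alone, and lists and neighbours without DMSO replicate 1, were added after seeing the data. The steps were tested on simulated data.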

Additional observations from a re-analysis of the deposited data

Results flagged for a closer look

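In 6 of the 10 granule genes the effect of venetoclax differed between cells with and without ERKi by the interaction term of the edgeR fit, and in each the effect was more positive with ERKi. Of all genes tested 21.3% were called higher and 18% lower for this term. The share of higher among all its calls was 54.2%, and 38.3% with scaling by library totals. The difference, Comb against ERKi minus venetoclax against DMSO, was 0.96 for LYZ, 1.61 for MPO, 1.29 for ELANE, 1.32 for AZU1, 0.45 for CTSG and 1.05 for CFD on the log2 scale. In LYZ the Comb libraries were all above the ERKi libraries and the venetoclax libraries all below the DMSO libraries. For MPO, ELANE, CTSG and CFD the Comb libraries were all above the ERKi libraries, while venetoclax and DMSO libraries overlapped. For AZU1, whose term was called only without DMSO replicate 3, ERKi replicate 2 or Comb replicate 1 among the libraries left out in turn, Comb and ERKi libraries overlapped.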

How the results depend on the processing

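Over 60 values, each gene in each comparison, 453 of 469 results under other settings and 383 of 420 with a library left out kept their direction and their side of the threshold. For venetoclax against DMSO, 1 granule gene and 61 genes in all were called. Without a filter these were 3 and 242, with AZU1 (-0.61, adjusted p = 0.000293) and PRTN3 (2.12, 4.34e-17) added. The main edgeR fit gave them adjusted p = 0.668 and 0.413 at the same fold changes. The PRTN3 value rests on venetoclax replicate 3 and was -0.28 without it. The p-values without a filter therefore do not reflect the scatter of these libraries, and the added calls give no support. In a fit of the compared libraries alone edgeR gave 0 and 33 (LYZ adjusted p = 0.329), and with a library left out 0 to 1 and 33 to 98. With a library left out the other comparisons gave 8 to 9 granule genes and 9996 to 10736 genes for ERKi against DMSO, 9 to 10 and 8934 to 10085 for Comb against DMSO, 9 to 10 and 9356 to 9516 for Comb against venetoclax, 7 to 8 and 6824 to 7088 for Comb against ERKi, and 5 to 7 and 5216 to 6181 for the interaction.

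Some log2 values turned their direction. PRTN3 in Comb against venetoclax was 1.11 with limma-voom, 0.35 with the replicate block and -0.64 to 2.30 with a library left out. In venetoclax against DMSO the ranges with a library left out were -0.10 to 0.16 for MPO, -0.33 to 0.024 for ELANE, -0.28 to 2.65 for PRTN3, -0.12 to 0.054 for CTSG, -0.091 to 0.080 for RNASE2 and -0.35 to 0.070 for CFD. The values above 0 in ELANE, CTSG and CFD came without DMSO replicate 1, and PRTN3 was below 0 without venetoclax replicate 3. The MMP9 interaction ran from -0.050 to 1.30. The cause was not tested in any of these. Scaling by library totals moved the median of all genes to 0.10 in ERKi against DMSO, -0.13 in Comb against ERKi and -0.10 in the interaction.

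Replicate numbers did not pair the samples: in 18 pairs of same-numbered libraries the correlation of deviations ran from -0.07 to 0.09. With the replicate block the granule genes called were 1 for venetoclax, 9 for ERKi and 10 for Comb against DMSO, 9 for Comb against venetoclax, 8 for Comb against ERKi, with AZU1 added (0.73, adjusted p = 0.0471), and 6 for the interaction. The AZU1 interaction lost its call with DESeq2 (adjusted p = 0.0768), limma-voom (0.154) and library totals (0.0611). Low counts limit MPO and MMP9, with at most 63 and 168 counts in any library, and PRTN3, with as few as 11.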

Other observations

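The genes beside the granule genes of other chromosomes gave values of their own. Of all genes tested 30.4% were called higher and 33.4% lower with the combination, and 34.5% higher and 35.2% lower with ERKi. Both tested neighbours of LYZ within 100 kb were lower than with DMSO: YEATS4, a chromatin reader, by log2 -0.53 with the combination and -0.80 with ERKi, and CPSF6, of the mRNA cleavage machinery, by -0.10 and -0.33. All 3 tested neighbours of SRGN, namely KIFBP, VPS26A and SUPV3L1, were lower with the combination (log2 -0.93, -0.38 and -0.51) and with ERKi (-0.61, -0.32 and -0.67). Beside MPO, the eosinophil peroxidase gene EPX averaged 0.543 CPM in Comb, 0.843 in ERKi, 0.217 in venetoclax and 0.205 in DMSO libraries, with at most 23 counts in any library. Its mean was above the filter's cutoff of 0.49 CPM in the Comb and ERKi groups alone, so its calls of higher give no support. LPO, lactoperoxidase, had log2 fold changes of -0.93 with the combination (adjusted p = 0.0496) and -1.77 with ERKi (adjusted p = 0.00131). LPO averaged 1.16 CPM over all 12 libraries and may have passed the filter through the groups where it was high. Its calls of lower then give no support. Of the 8 tested neighbours of MPO 5 were higher and 2, LPO and SUPT4H1, lower with the combination. The 5 include EPX and also RNF43, at log2 5.35 with the combination and 7.14 with ERKi. RNF43 may likewise have passed the filter through the groups where it was high, so its calls give no support either. Without DMSO replicate 1, 4 were higher and both lower calls, that of LPO included, were lost. PLTP, the phospholipid transfer protein gene beside MMP9, was lower by log2 -1.38 with the combination and -2.27 with ERKi (adjusted p = 1.68e-10 and 3.51e-13). These genes were read from the same libraries as the granule genes.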
